A study of Mus musculus with 75 samples.

Results

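Collagens are secreted proteins built from 3 polypeptide chains wound into a triple helix, and each chain is the product of its own gene. Fibrillar collagens form the tension-bearing fibres of tendon and of the connective tissue around muscle bundles, whereas basement membrane collagens form the sheet that wraps every muscle fibre and capillary. The remaining types link these structures, anchor cells to them or decorate their surface, and in muscle most collagen mRNA comes from fibroblasts and other non-fibre cells. The collagen genes described here were chosen by name, as every gene whose symbol is Col, a number, a and a number. The rule found 38 of the 13856 genes in the expression table, of which 11 encode fibrillar chains, 7 encode basement membrane chains and 20 encode chains of other types.

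RNA was sequenced from gastrocnemius, the large calf muscle, of male and female BALB/c mice at day 25 after injection of C26 cells or PBS. C26 is a mouse colon carcinoma line that was injected on both sides and is widely used to produce muscle wasting. Within each sex there were 5 arms, namely PBS with saline, C26 with saline, and C26 with 5-fluorouracil, paclitaxel or cisplatin. The drugs were given from day 12 at 75% of the maximum tolerated dose in 2 cycles with 2 injections per week, and the other arms received saline on that schedule. All 3 drug arms carried the tumour, so no arm shows a drug without a tumour, and every drug comparison within a sex shares the same C26 saline libraries. The 10 groups held 7, 7, 8, 7 and 6 female libraries and 8, 8, 8, 6 and 8 male libraries in that order of arms. A single library whose title and treatment label disagree was left out. The labels list 75 samples but the values have 74 columns, because female PBS replicate 8 has none.

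Across the 73 libraries the estimated depth ran from 11.4 M to 40.5 M counts (M for mega) with a median of 22.5 M. A list of 10 muscle fibre genes (actin, creatine kinase and fast myosin among them) summed to between 127907 and 370573 CPM (counts scaled to a common library size) in every library, as the tissue label states. A library property that differed between arms was the slope of expression on transcript GC content, which exceeded 0.1 in 4 of 6 male paclitaxel libraries and 4 of 8 male 5-fluorouracil libraries but in 0 of 8 male C26 saline libraries. The mitochondrial share of expression moved with it, at 1.65% to 5.14% in the 19 libraries of slope above 0.1 and 4.67% to 17.7% in the other 54. Its group median was 2.52% in male paclitaxel, 6.13% in male 5-fluorouracil and 8.22% in male C26 saline libraries, and its part in the drug results was not tested. Collagen transcripts are GC-rich, with a median of 56.3% against 50.5% over all genes matched, and 31 of 38 lay above the median of all genes. In bulk tissue, fewer cells of a type and less RNA per cell cannot be told apart. The labels call the libraries separate samples without naming litters or cages, so each p-value reflects only how far samples of a group lie apart, which may in part be technical.

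Pairs of type IV collagen genes lie head to head, and the stretches between or at their starts are shown. Both genes of each pair were called between C26 saline and PBS in males, but the pairs did not move together in every comparison. In the GRCm38 genome with the GENCODE vM21 annotation, the annotated starts of Col4a1 and Col4a2 lie 21 bases apart on opposite strands, so the first exons share 22 bases at chr8:11312805-11312826. The starts of Col4a3 and Col4a4 lie 72 bases apart, with 71 bases between them at chr1:82586850-82586920. Both are written 5′ to 3′ on the plus strand.
Col4a1 and Col4a2: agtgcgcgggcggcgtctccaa
Col4a3 and Col4a4: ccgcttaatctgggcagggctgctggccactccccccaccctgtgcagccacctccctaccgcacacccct

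Windows of 250 bases before the annotated start are shown for 3 of the genes whose level fell with the tumour in male mice under every setting tried, taken from the RefSeq promoter table (GRCm38.p6). These are Col11a2 at chr17:34038888-34039137, Col15a1 at chr4:47207762-47208011 and Col24a1 at chr3:145292222-145292471, all on the plus strand. Capitals mark the motif CCAAT, the motif GGGCGG, the motif TATAAA and the motif CANNTG, each searched on both strands, where any base may stand at N.
Col11a2: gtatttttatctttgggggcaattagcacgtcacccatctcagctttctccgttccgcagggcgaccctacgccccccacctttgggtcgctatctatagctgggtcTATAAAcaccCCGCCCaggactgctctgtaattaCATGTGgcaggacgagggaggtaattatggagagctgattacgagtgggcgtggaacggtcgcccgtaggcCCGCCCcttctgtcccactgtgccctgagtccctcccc
Col15a1: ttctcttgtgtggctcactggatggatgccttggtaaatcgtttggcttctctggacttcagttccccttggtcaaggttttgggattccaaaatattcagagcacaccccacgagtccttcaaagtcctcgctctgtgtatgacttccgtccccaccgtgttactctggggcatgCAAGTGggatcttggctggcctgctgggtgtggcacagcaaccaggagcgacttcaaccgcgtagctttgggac
Col24a1: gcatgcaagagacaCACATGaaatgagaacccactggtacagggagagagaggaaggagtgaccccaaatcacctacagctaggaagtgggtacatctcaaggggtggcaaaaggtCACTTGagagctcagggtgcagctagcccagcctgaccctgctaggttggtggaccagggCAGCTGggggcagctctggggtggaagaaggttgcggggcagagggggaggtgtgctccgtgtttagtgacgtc
The Col11a2 window held 2 copies of GGGCGG, 1 of TATAAA and 1 of CANNTG, the Col15a1 window held 1 CANNTG, and the Col24a1 window held 3. Of all 32851 promoters in the table, 33.8% held CCAAT, 32.7% GGGCGG, 12.4% TATAAA and 66.2% CANNTG in such a window. Among the 29 members with an entry, 10 held CCAAT, 17 GGGCGG, 4 TATAAA and 17 CANNTG. A member counted if any of its windows matched (Col18a1 and Col6a2 have more than 1), whereas the shares above count each promoter. A match is only a run of letters in this window and says nothing of which factor binds.

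In PBS muscle, collagen levels spanned a wide range. After division by transcript length, the mean log2 level per kilobase over the 15 PBS libraries was highest for Col1a2 at 4.91, the second chain of type I collagen. Col3a1 (type III, the thin reticular fibres) followed at 4.44, Col1a1 (the major type I chain) at 4.41, Col4a1 and Col4a2 (the ubiquitous type IV chains) at 4.36 and 4.27, and Col6a1 (type VI, a beaded microfibril next to the basement membrane) at 4.24. The top of this order is not resolved, because the SD of Col1a1 was 0.66 in females and 0.84 in males. At the other end stood Col9a3, a cartilage collagen chain, at -3.91 per kilobase. Back-transformed and summed, the 38 genes made up between 0.0803% and 0.158% of the expression total in female PBS libraries and between 0.0926% and 0.197% in male PBS libraries.

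A pair of collagen genes differed several-fold between the sexes without a tumour. Col7a1, which encodes the anchoring fibrils best known from skin, ranged from 5.71 to 6.27 with a median of 6.03 in male PBS libraries and from 4.36 to 5.25 with a median of 4.59 in female ones. The groups did not overlap (1.32% of all genes were higher in males so), and the difference was 1.36 on the log2 scale (SE 0.16, limma adjusted p = 5.3e-09). Col24a1, a minor fibrillar chain of developing bone, went the other way, with 3.02 to 3.48 (median 3.24) in males and 3.13 to 6.04 (median 5.57) in females. All female values but that of replicate 1 lay above every male value, and the difference was -2.06 (SE 0.41, adjusted p = 0.00053). Col4a4, a chain of the specialised type IV network, was also higher in males, by 1.00 (SE 0.27, adjusted p = 0.020). These 3 of 38 stood against 2.2% of all genes higher and 1.19% lower in males. This comparison was not refitted under alternative settings or with libraries left out.

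The first question was what the tumour alone did to collagen expression. In male muscle 15 of the 38 genes differed between C26 saline and PBS, 13 lower and 2 higher, where 13.0% of all genes were called lower and 13.1% higher at an adjusted p under 0.05. The median change of the 38 genes was -0.50 on the log2 scale, beside 0.003 over all genes. Fibrillar chains were lower without exception in sign (11 of 11 negative, median -0.99, 5 called), as they also were after quantile normalization. Basement membrane chains split, with 2 called higher and 4 lower of 7, and 4 of the 20 other chains were called lower. Leaving out each male library in turn gave 13 to 17 calls.

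**Figure D1:**
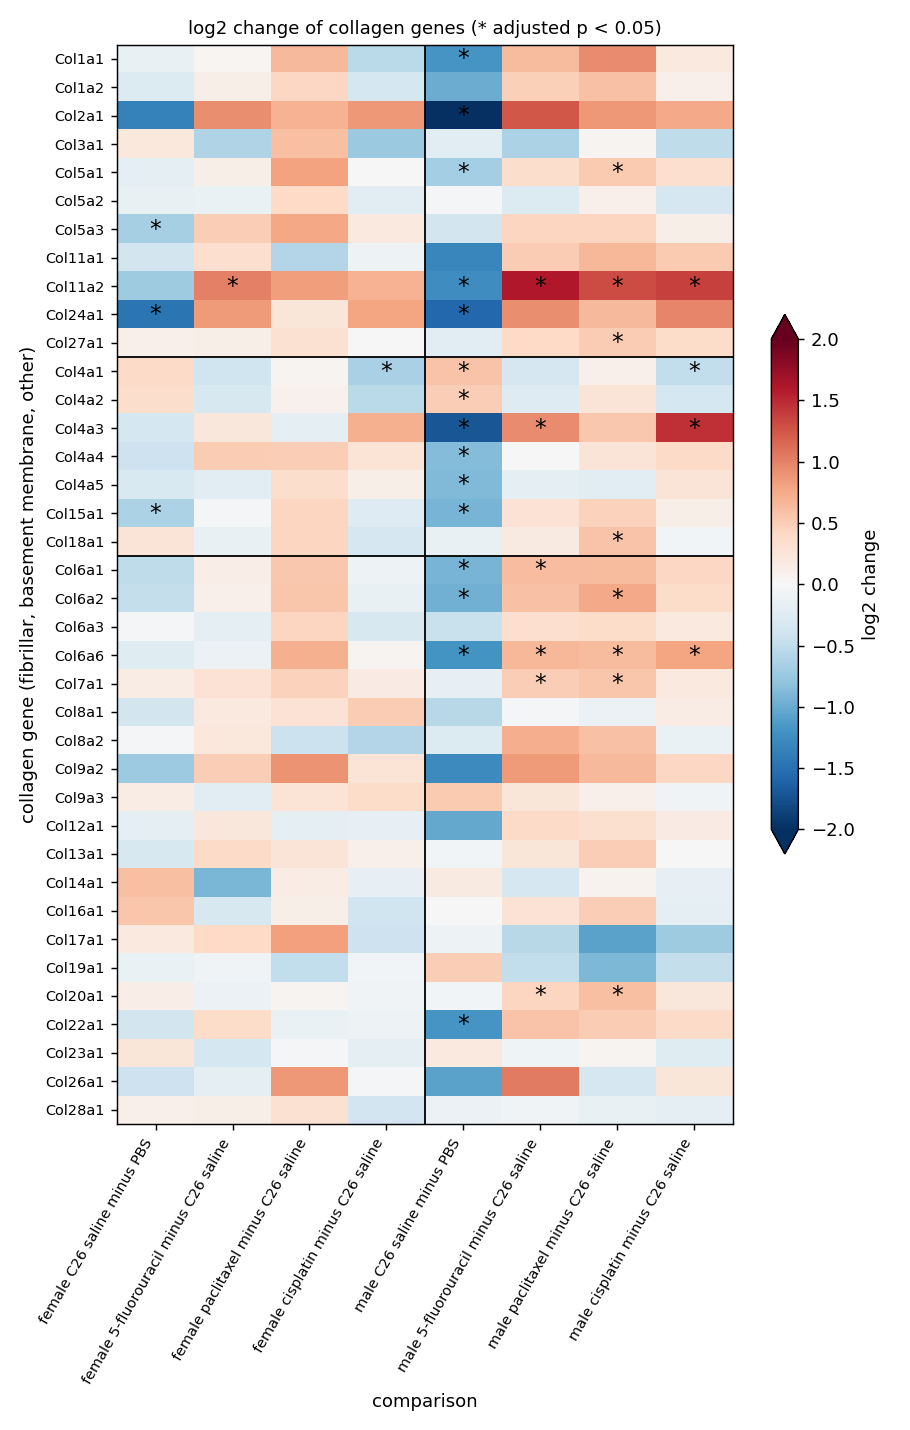
Log2 change of the 38 collagen genes (rows, in order of class) in 8 comparisons (columns, 4 per sex), where blue is lower and red higher in the first-named group and an asterisk marks an adjusted p under 0.05. The male tumour column carries 15 asterisks and the female one 3, and Col11a2 is red in every drug column.

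Among fibrillar chains, the type I chain Col1a1 fell in male muscle. Col1a1 ranged from 6.24 to 8.36 with a median of 7.10 in PBS libraries and from 5.39 to 7.24 with a median of 5.90 in C26 saline libraries. The ranges overlapped, with 5 of 8 tumour libraries below every PBS library, and the change was -1.19 (SE 0.44, adjusted p = 0.035). The call was lost without any one of 7 single libraries (male PBS replicates 6, 7 and 8 and male C26 saline replicates 1, 2, 3 and 6), with an adjusted p of up to 0.086. Its partner Col1a2 changed by -0.99 (SE 0.42) without passing the test (adjusted p = 0.073), and Col3a1 by -0.21 (SE 0.28, adjusted p = 0.63).

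Within single libraries the balance of type I to type III also differed. Col1a1 minus Col3a1 had a median of 0.26 (-0.51 to 1.32) in male PBS libraries and of -0.74 (-1.14 to -0.42) in male C26 saline libraries. The ranges overlapped only slightly. In females the medians were 0.02 and -0.63, with ranges of -0.72 to 0.62 and -0.84 to 0.44 that overlapped widely.

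Of the other fibrillar chains, which sit inside or nucleate the large fibres or belong to cartilage, 4 were called lower in male muscle. Col11a2, a chain of type XI collagen that shares the fibril core, ranged from 4.35 to 5.02 (median 4.70) in male PBS and from 2.70 to 4.54 (median 3.25) in male C26 saline libraries. In 7 of 8 tumour libraries the value lay below every PBS library, and the change was -1.23 (SE 0.24, adjusted p = 6.7e-05). Col24a1 went from 3.02 to 3.48 (median 3.24) down to 0.48 to 3.38 (median 1.84), a change of -1.56 (SE 0.39, adjusted p = 0.0016), with 1 tumour library inside the PBS range. Col5a1, the chain of type V collagen that starts fibril assembly, fell from a median of 5.21 (4.93 to 5.77) to 4.67 (4.13 to 4.94), a change of -0.68 (SE 0.18, adjusted p = 0.0036). Only the highest of the 8 tumour values reached the PBS range. The cartilage chain Col2a1 fell by 2.09 (SE 0.57, adjusted p = 0.0038) at low counts, from a median of -0.54 (-2.11 to 0.16) to -2.90 (-5.82 to -1.23). The other type V chains did not pass the test, with Col5a2 at -0.04 (SE 0.20, adjusted p = 0.91) and Col5a3 at -0.36 (SE 0.18, adjusted p = 0.14).

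**Figure D2:**
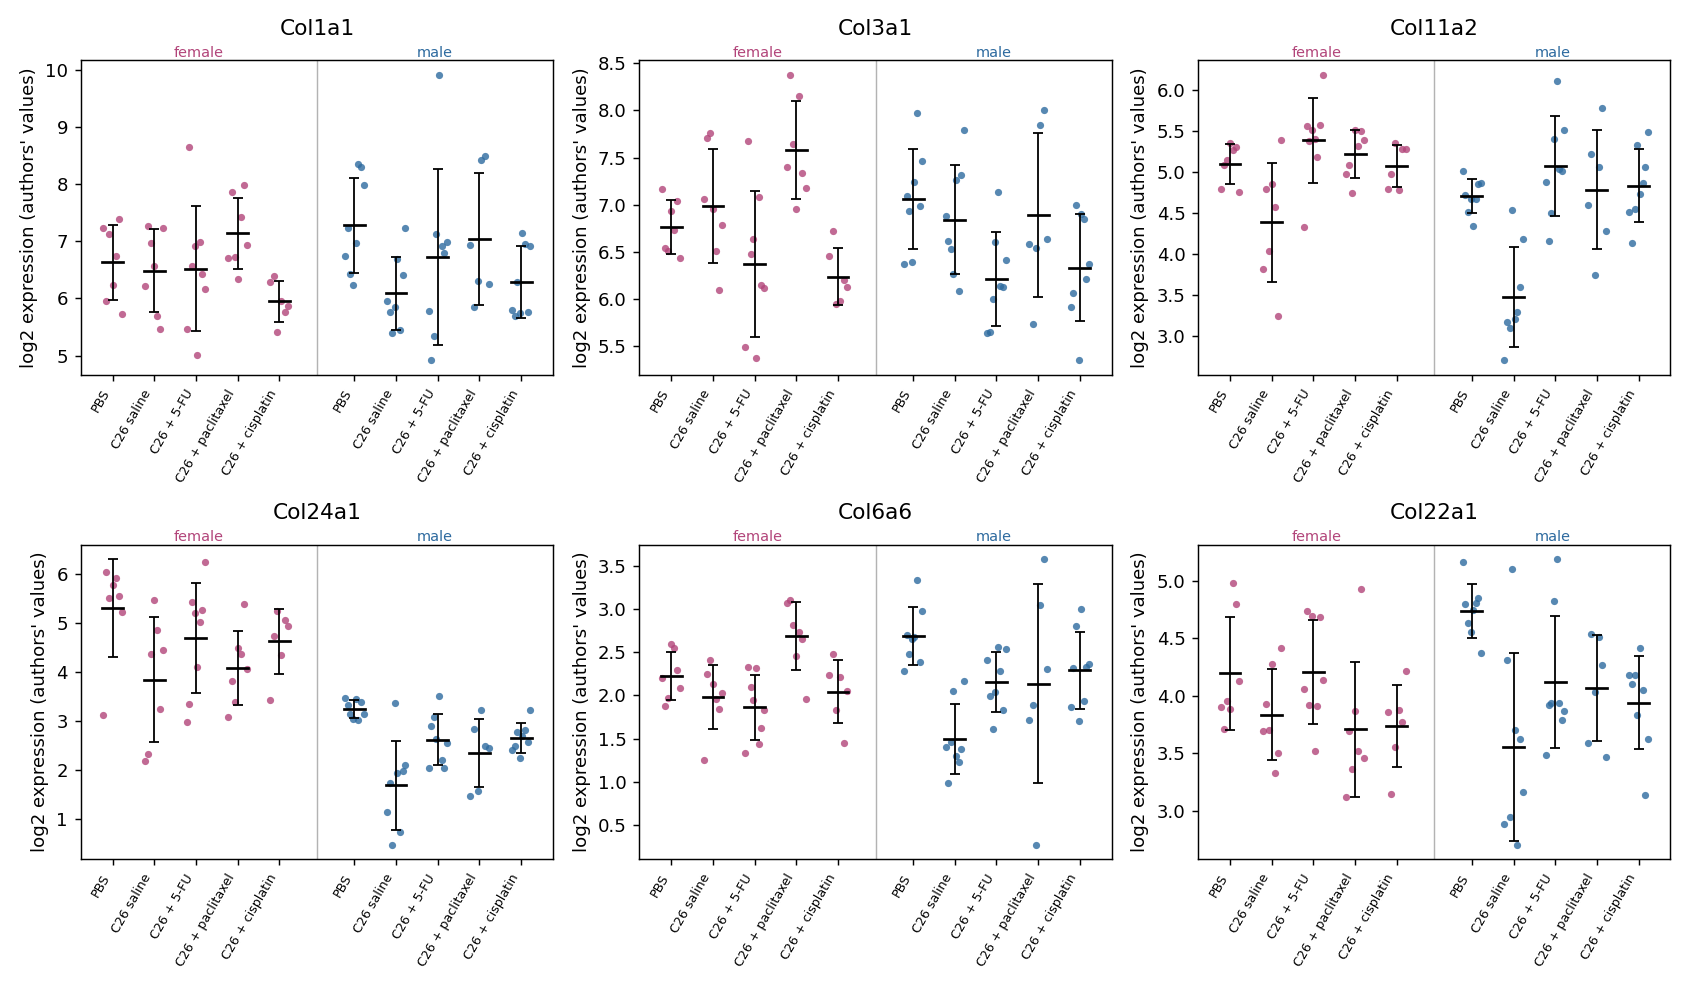
Log2 expression of 4 fibrillar chains (Col1a1, Col3a1, Col11a2, Col24a1), the type VI chain Col6a6 and the junction collagen Col22a1 in each library (points) by arm and sex, with bars at the mean ± SD. Male C26 saline libraries sit low for Col11a2 (median 3.25 against 4.70 in PBS), and 1 male 5-fluorouracil library stands alone at 9.92 for Col1a1.

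The basement membrane chains of male muscle moved in opposite directions. Col4a1 rose from a median of 7.08 (6.73 to 7.41) in PBS to 7.65 (7.20 to 8.18) in C26 saline libraries, by 0.58 (SE 0.16, adjusted p = 0.0035). Col4a2, which joins Col4a1 in the type IV molecule found in nearly all basement membranes, rose from 6.93 (6.75 to 7.24) to 7.50 (7.14 to 7.88), by 0.49 (SE 0.17, adjusted p = 0.028). For each gene 6 of 8 tumour libraries exceeded every PBS library. The Col4a2 call was lost without male PBS replicate 1 or 7 or male C26 saline replicate 5, with an adjusted p of up to 0.075. In all 73 libraries Col4a1 minus Col4a2 stayed between -0.17 and 0.78, with an SD of 0.14, the tightest of the 5 differences between chains that were examined.

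The chains of the specialised type IV networks fell. Col4a3, known from kidney and lung basement membranes, ranged from 0.61 to 1.49 (median 1.05) in male PBS and from -1.51 to 0.08 (median -0.64) in male C26 saline libraries. The groups did not overlap, which held for 2 of the 38 genes in the lower direction and 2.16% of all genes, and the change was -1.71 (SE 0.27, adjusted p = 8.1e-07). Its head-to-head neighbour Col4a4 fell from 0.74 (0.26 to 1.38) to 0.05 (-1.20 to 0.55), a change of -0.87 (SE 0.26, adjusted p = 0.0081). Col4a5, the third chain of that network, fell from 1.34 (0.96 to 2.12) to 0.61 (-0.35 to 1.27), a change of -0.89 (SE 0.26, adjusted p = 0.0069). These 3 genes are weakly expressed, far below Col4a1, which exceeded Col4a3 within each male PBS library by 5.48 to 6.77 log2 units and within each male C26 saline library by 7.59 to 9.16.

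Col15a1 encodes type XV collagen, a proteoglycan that ties the basement membrane of fibres and capillaries to the interstitial matrix. It ranged from 4.69 to 5.98 (median 5.43) in male PBS and from 4.14 to 5.12 (median 4.42) in male C26 saline libraries. The change was -0.92 (SE 0.18, adjusted p = 4.7e-05), lower than the PBS mean in 8 of 8 libraries. Col18a1, the related type XVIII chain whose end fragment is endostatin, changed by -0.15 (SE 0.18, adjusted p = 0.59).

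**Figure D3:**
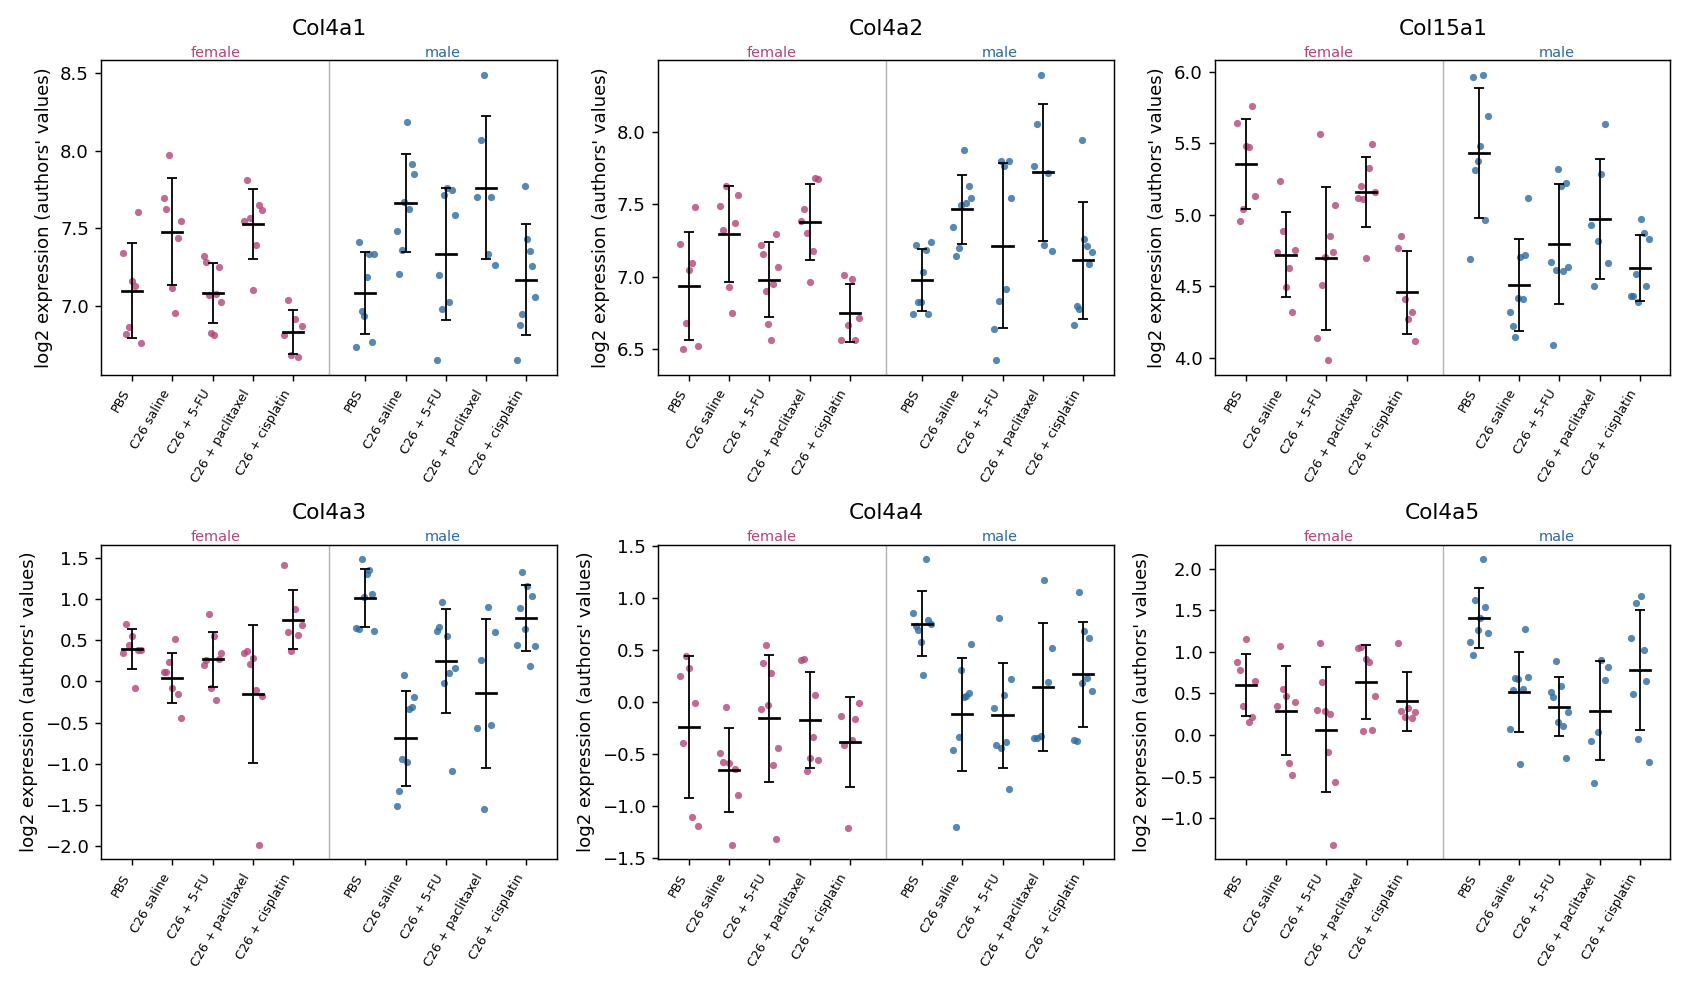
Log2 expression of 6 basement membrane chains in each library (points) by arm and sex, with bars at the mean ± SD. In males Col4a1 and Col4a2 are higher and Col15a1, Col4a3, Col4a4 and Col4a5 lower in C26 saline than in PBS, and Col4a3 is back above every C26 saline value in the male cisplatin libraries (0.19 to 1.33).

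Of the other chains, type VI collagen fell in part. Col6a1 went from a median of 6.33 (5.60 to 6.81) to 5.26 (4.81 to 6.00), a change of -0.93 (SE 0.24, adjusted p = 0.0019), and Col6a2 from 6.22 (5.34 to 6.68) to 5.03 (4.59 to 5.90), a change of -0.97 (SE 0.25, adjusted p = 0.0023). The third chain of the classical type VI molecule, Col6a3, changed by -0.45 (SE 0.22) and did not pass the test (adjusted p = 0.12). Col6a6, which can take the place of Col6a3, went from 2.29 to 3.34 (median 2.67) down to 0.99 to 2.16 (median 1.39) with no overlap, a change of -1.19 (SE 0.24, adjusted p = 8.2e-05). Col22a1, a collagen of the junction between muscle and tendon, went from 4.77 (4.38 to 5.16) to 3.39 (2.70 to 5.10), a change of -1.18 (SE 0.25, adjusted p = 0.00015). Of the 8 tumour libraries 1 stayed within the PBS range for Col22a1.

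In female muscle 3 of the 38 genes passed the test between C26 saline and PBS, all lower, where 2.56% of all genes were called lower and 4.14% higher. The median change of the 38 genes was -0.19 beside -0.01 over all genes. Col5a3, a type V chain, ranged from 4.63 to 5.63 (median 4.88) in female PBS and from 4.03 to 4.61 (median 4.43) in female C26 saline libraries. It was the single member whose groups did not overlap in the lower direction (0.779% of all genes), and it changed by -0.67 (SE 0.19, adjusted p = 0.023). Col15a1 fell from 5.48 (4.96 to 5.76) to 4.74 (4.32 to 5.24), a change of -0.63 (SE 0.19, adjusted p = 0.029), and 6 of 7 tumour libraries lay below every PBS library. Col24a1 fell from 5.57 (3.13 to 6.04) to 4.37 (2.19 to 5.48), a change of -1.46 (SE 0.42, adjusted p = 0.021), over ranges that overlapped widely.

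None of the 3 female calls was left without the 19 libraries of GC slope above 0.1 (adjusted p = 0.083 for Col15a1, 0.091 for Col5a3 and 0.051 for Col24a1). The Col24a1 call was also lost when the groups were fitted alone (adjusted p = 0.11). Each of the 3 was lost without any one of 4 to 6 single libraries. For Col15a1 these were female PBS replicates 1, 4, 5 and 6 and C26 saline replicates 4 and 6, for Col5a3 PBS replicates 5 and 6 and C26 saline replicates 5 and 6, and for Col24a1 PBS replicate 2 and C26 saline replicates 1, 2 and 6. The count was 0 without C26 saline replicate 6 and 1 without PBS replicate 5 or 6. In females Col4a1 changed by 0.38 (SE 0.17, adjusted p = 0.18), Col4a2 by 0.36 (SE 0.19, adjusted p = 0.29) and Col1a1 by -0.15 (SE 0.47, adjusted p = 0.91). Col3a1 changed by 0.22 (SE 0.30, adjusted p = 0.78), Col5a1 by -0.20 (SE 0.20, adjusted p = 0.66) and Col18a1 by 0.26 (SE 0.19, adjusted p = 0.52).

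Although more members passed in males, the difference between the sexes was itself tested and 0 of the 38 passed, beside 0.0361% of all genes in either direction. By limma 3 members had an unadjusted p under 0.05, a count without a baseline because no share of all genes at that level is given. Col4a3 had the smallest adjusted p, with a male minus female tumour effect of -1.36 (SE 0.39, adjusted p = 0.22). For Col15a1 the difference was -0.29 (SE 0.26, adjusted p = 0.88), and for Col24a1 -0.10 (SE 0.58, adjusted p = 0.98).

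A shift between basement membrane chains was visible in single libraries of both sexes. Col4a1 minus Col15a1 lay between 1.63 and 1.86 in female PBS and between 2.33 and 3.11 in female C26 saline libraries, and between 1.35 and 2.04 in male PBS and between 2.73 and 3.48 in male C26 saline libraries. The tumour and PBS ranges did not overlap in either sex. In the drug arms the medians lay between, at 2.37, 2.43 and 2.31 in females and 2.47, 2.69 and 2.44 in males for 5-fluorouracil, paclitaxel and cisplatin. This pair was picked after the single values were known, so the difference is a description without a test.

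**Figure D4:**
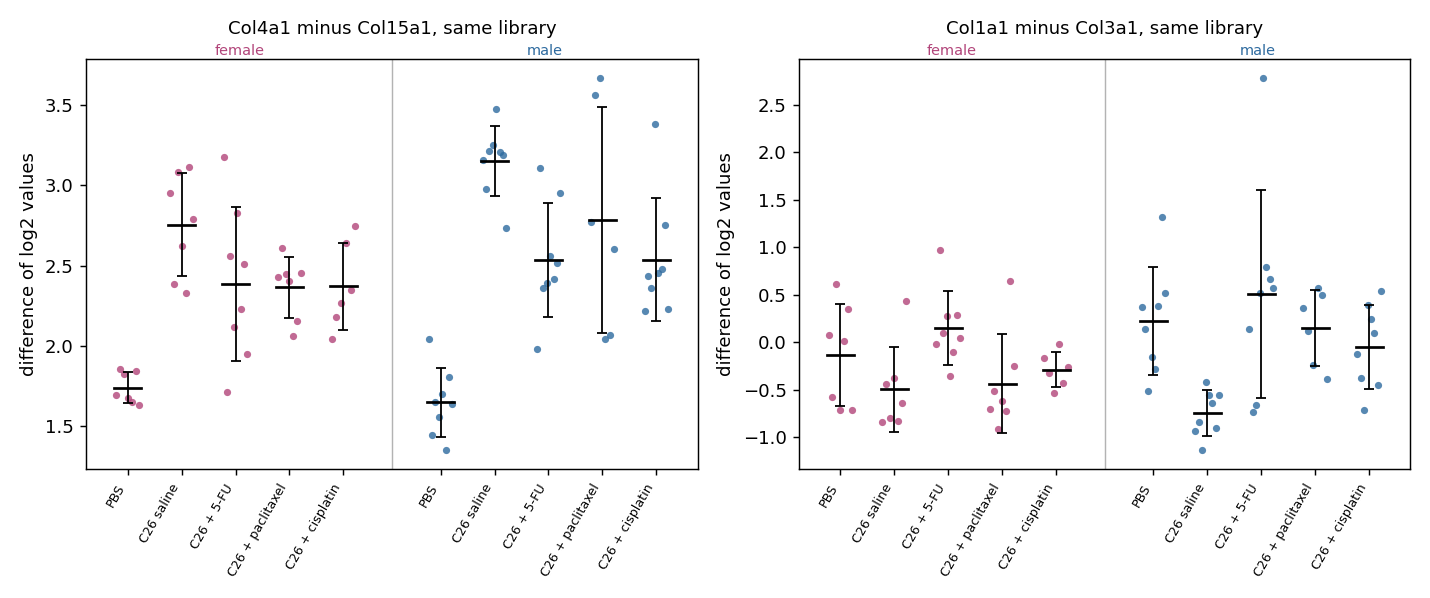
Difference of 2 collagen genes within the same library (points) by arm and sex, as log2 values, with bars at the mean ± SD. Col4a1 minus Col15a1 reaches at most 2.04 in PBS libraries and at least 2.33 in C26 saline libraries, while Col1a1 minus Col3a1 overlaps between arms.

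The next question was how each drug changed collagen expression in tumour-bearing muscle. In males 5-fluorouracil raised 6 of the 38 genes over C26 saline and lowered 0, where 11.3% of all genes were called higher and 12.0% lower. The median change of the 38 genes was 0.37 beside -0.03 over all genes. Paclitaxel raised 8 and lowered 0, where 13.5% of all genes were higher and 18.5% lower, with a median of 0.49 beside -0.005. Cisplatin raised 3 and lowered 1, where 7.66% were higher and 8.23% lower, with a median of 0.17 beside -0.04. The 5-fluorouracil count was 2 or 3 without male C26 saline replicate 1, 6 or 7 or 5-fluorouracil replicate 4 or 8, and 10 without 5-fluorouracil replicate 2. The paclitaxel count was 4, 4, 5 and 2 without male C26 saline replicate 6 and paclitaxel replicates 1, 4 and 5.

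Col11a2 rose with every drug in males. From a median of 3.25 in C26 saline libraries it reached 5.03 (4.16 to 6.11) with 5-fluorouracil, 4.83 (3.75 to 5.79) with paclitaxel and 4.80 (4.14 to 5.49) with cisplatin. The PBS median of 4.70 lay just below all 3. The changes were 1.60 (SE 0.24, adjusted p = 5.2e-06), 1.31 (SE 0.26, adjusted p = 0.00070) and 1.36 (SE 0.24, adjusted p = 4.4e-05), and all 3 calls were kept under each of the 7 alternative settings and with each library left out.

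The specialised type IV chain Col4a3 rose with 2 of the drugs. With cisplatin it ranged from 0.19 to 1.33 (median 0.77), above every C26 saline library (0.231% of all genes were separated so), a change of 1.46 (SE 0.27, adjusted p = 5.7e-05). With 5-fluorouracil it ranged from -1.09 to 0.97 (median 0.36), a change of 0.94 (SE 0.27, adjusted p = 0.0079). With paclitaxel it ranged from -1.55 to 0.91 (median -0.14), and the change of 0.55 (SE 0.29) did not pass the test (adjusted p = 0.13). Col4a4, the head-to-head neighbour of Col4a3, was not called with any drug against C26 saline. Its mean was -0.12 in male C26 saline libraries and -0.13, 0.14 and 0.27 with 5-fluorouracil, paclitaxel and cisplatin. Col4a5 did not return, at -0.18 (SE 0.26, adjusted p = 0.64), -0.22 (SE 0.28, adjusted p = 0.56) and 0.26 (SE 0.26, adjusted p = 0.55) for the 3 drugs in that order.

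The abundant type IV chains were also set beside C26 saline and PBS for each drug in males. With paclitaxel the male Col4a1 range was 7.27 to 8.49 (median 7.70), about that of C26 saline, and the change was 0.10 (SE 0.17, adjusted p = 0.68). With cisplatin it was 6.65 to 7.77 (median 7.16), near that of PBS, and the gene fell by 0.49 (SE 0.16, adjusted p = 0.022). That call was lost when the groups were fitted alone (adjusted p = 0.069) and without male C26 saline replicate 5 or cisplatin replicate 1 (up to 0.080). The paclitaxel and cisplatin ranges overlapped. The 5-fluorouracil change was -0.33 (SE 0.16, adjusted p = 0.11). Against PBS rather than C26 saline, paclitaxel left Col4a1 higher by 0.68 (SE 0.17, adjusted p = 0.0025) and Col4a2 by 0.74 (SE 0.19, adjusted p = 0.0026). Those 2 and Col20a1 (0.54, SE 0.17, adjusted p = 0.013) made 3 higher of 38, and 5 were lower, beside 16.9% and 20.6% of all genes. The 5 were Col4a3 at -1.17 (SE 0.29, adjusted p = 0.0022), Col4a5 at -1.11 (SE 0.28, adjusted p = 0.0027), Col22a1 at -0.67 (SE 0.27, adjusted p = 0.041), Col26a1 at -1.41 (SE 0.52, adjusted p = 0.029) and Col8a1, a short-chain network collagen, at -0.67 (SE 0.27, adjusted p = 0.043). No comparison of a drug arm with PBS was refitted under the alternative settings or with libraries left out, so the stability of these calls was not tested. The GC slope exceeded 0.1 in 4 of 6 male paclitaxel and 2 of 8 male PBS libraries. Col4a1 minus Col4a3 was 6.42 and 6.66 in paclitaxel replicates 4 and 6, whose slopes were below 0.1. It was 7.81 to 10.04 in the other male paclitaxel libraries and 5.48 to 6.77 in male PBS. The part of the GC slope in these calls was not tested.

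Col6a6 rose with all 3 drugs in males, by 0.66 (SE 0.24, adjusted p = 0.037), 0.64 (SE 0.26, adjusted p = 0.0498) and 0.79 (SE 0.24, adjusted p = 0.015) for 5-fluorouracil, paclitaxel and cisplatin. The cisplatin call was kept under all 7 alternative settings and with each library left out. The other calls were less stable. The paclitaxel one was lost when the groups were fitted alone, with quality weights and with GC slope in the model (highest adjusted p 0.24), and without any 1 of 11 libraries (male C26 saline replicates 1, 2, 3, 5, 6 and 7 and paclitaxel replicates 1, 2, 4, 5 and 6, up to 0.32). The 5-fluorouracil one was lost without the libraries of GC slope above 0.1 (0.077) and without any 1 of 10 libraries (male C26 saline replicates 1, 2, 5, 6 and 7 and 5-fluorouracil replicates 1, 4, 5, 6 and 8, up to 0.073).

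The remaining male rises were smaller and less stable. Col6a1 was called higher with 5-fluorouracil by 0.61 (SE 0.24, adjusted p = 0.0499), but in only 3 of 7 alternative settings (adjusted p of up to 0.86), and the call was lost without any 1 of 10 libraries (male C26 saline replicates 1, 2, 3, 6 and 7 and 5-fluorouracil replicates 4 to 8, up to 0.17). Col6a2 rose with paclitaxel by 0.76 (SE 0.27, adjusted p = 0.028). Col7a1 rose by 0.50 (SE 0.16, adjusted p = 0.017) and 0.55 (SE 0.17, adjusted p = 0.013) with 5-fluorouracil and paclitaxel, and Col20a1, a minor fibril-associated collagen, by 0.43 (SE 0.16, adjusted p = 0.041) and 0.59 (SE 0.17, adjusted p = 0.0087). Paclitaxel also raised Col5a1 by 0.53 (SE 0.20, adjusted p = 0.036), Col18a1 by 0.56 (SE 0.19, adjusted p = 0.023) and Col27a1, a fibrillar chain of cartilage, by 0.50 (SE 0.18, adjusted p = 0.029). With the groups fitted alone Col20a1 was kept for paclitaxel and the other calls of this paragraph were lost. Under 5-fluorouracil, Col7a1 was also lost without male C26 saline replicate 1 or 7 or 5-fluorouracil replicate 4, and Col20a1 without any 1 of 9 libraries (male C26 saline replicates 1, 2, 6 and 7 and 5-fluorouracil replicates 4 to 8). Under paclitaxel, replicate 5 decided the calls of Col18a1, Col7a1, Col27a1, Col6a2 and Col5a1. Replicate 1 also decided Col7a1, Col27a1 and Col5a1, replicate 4 Col6a2 and Col5a1, male C26 saline replicate 6 Col6a2, Col27a1 and Col5a1, and male C26 saline replicates 2 and 3 Col5a1.

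Under paclitaxel every male rise but that of Col11a2 was lost with the GC slope of the libraries as a covariate, where Col11a2 and Col4a3 (1.05, SE 0.27, adjusted p = 0.020) passed. Without the libraries of slope above 0.1, Col11a2 and Col6a6 were kept of the 8 and Col4a3 passed as well (1.45, SE 0.30, adjusted p = 0.0067). That setting left only paclitaxel replicates 4 and 6 in the group, and the part of the smaller group in these results was not tested. For Col7a1 under paclitaxel the change became 0.33 (adjusted p = 0.27) and 0.20 (adjusted p = 0.67). Of the 6 genes called for 5-fluorouracil, 3 were kept with the covariate (Col11a2, Col4a3 and Col6a6). Without those libraries, which left 5-fluorouracil replicates 1, 2, 3 and 6, 2 were kept (Col11a2 and Col4a3). Col4a1 and Col4a2 then passed as lower with 5-fluorouracil, at -0.49 (SE 0.14, adjusted p = 0.0085) and -0.50 (SE 0.13, adjusted p = 0.0044) with the covariate and at -0.70 (SE 0.16, adjusted p = 0.0023) and -0.76 (SE 0.15, adjusted p = 0.00059) without the libraries. The male tumour count was 17 and 19, and all 15 calls were among them under both settings.

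Type I and type III chains did not pass the test with any drug against C26 saline in either sex. Without the libraries of GC slope above 0.1 the male 5-fluorouracil change of Col1a1 turned to -0.36 (SE 0.47, adjusted p = 0.65), and Col3a1 passed at -0.99 (SE 0.33, adjusted p = 0.033). In males Col1a1 changed by 0.63 (SE 0.44, adjusted p = 0.29), 0.95 (SE 0.47, adjusted p = 0.11) and 0.19 (SE 0.44, adjusted p = 0.81), and Col3a1 by -0.63 (SE 0.28, adjusted p = 0.092), 0.05 (SE 0.30, adjusted p = 0.92) and -0.51 (SE 0.28, adjusted p = 0.23). Col15a1 likewise did not pass, at 0.29 (SE 0.18, adjusted p = 0.23), 0.46 (SE 0.19, adjusted p = 0.056) and 0.12 (SE 0.18, adjusted p = 0.70). Against PBS it was still lower with 5-fluorouracil at -0.64 (SE 0.18, adjusted p = 0.027) and with cisplatin at -0.80 (SE 0.18, adjusted p = 0.011). Together with Col4a4 (-0.88, SE 0.26, adjusted p = 0.036) and Col4a5 (-1.06, SE 0.26, adjusted p = 0.011) for 5-fluorouracil, these were 3 and 1 of 38 lower, beside 2.24% and 0.346% of all genes. Col4a5 lay below every male PBS library in all 5-fluorouracil and all paclitaxel libraries, at -0.27 to 0.89 and -0.58 to 0.91 against 0.96 to 2.12 (0.202% and 1.05% of all genes were lower so). The stability of the calls against PBS was not tested, nor was the part of the GC slope in them. That slope exceeded 0.1 in 4 of 8 male 5-fluorouracil, 4 of 6 paclitaxel, 2 of 8 cisplatin and 2 of 8 PBS libraries.

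In females the drug effects that passed the test were few. 5-fluorouracil raised Col11a2, 1 of 38 where 0.152% of all genes were higher, from a median of 4.58 (3.25 to 5.39) to 5.46 (4.34 to 6.19), by 1.00 (SE 0.25, adjusted p = 0.024). The call was lost when the 2 groups were fitted alone (adjusted p = 0.14) and without any one of 5 single libraries (female C26 saline replicates 1, 3 and 6 and female 5-fluorouracil replicates 4 and 8). Cisplatin lowered Col4a1, 1 of 38 where 1.31% of all genes were lower, from 7.55 (6.95 to 7.97) to 6.84 (6.67 to 7.03), a change of -0.65 (SE 0.17, adjusted p = 0.036). In 5 of 6 cisplatin libraries the value lay below every C26 saline library, and without any one of 9 single libraries (female C26 saline replicates 1, 2, 3, 6 and 7 and female cisplatin replicates 1, 3, 5 and 6) the call was lost. With the replicate number as a block its adjusted p was 0.058.

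Paclitaxel gave 0 calls among the 38 genes and 0.0% of all genes in females by limma. An unadjusted p under 0.05 was found for 9 members, without a share of all genes at that level to set beside it. Of the 38 changes 31 were positive, with a median of 0.38 beside 0.0005 over all genes. Col5a1 ranged from 5.53 to 6.05 (median 5.90) with paclitaxel and from 4.46 to 5.45 (median 5.03) in C26 saline libraries, a change of 0.81 (SE 0.20, adjusted p = 0.46). Col5a3 ranged from 4.87 to 5.48 (median 5.08), against 4.03 to 4.61 (median 4.43), a change of 0.77 (SE 0.19, adjusted p = 0.46). For both genes the groups did not overlap, as for 0.0361% of all genes, although neither passed the test.

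Against female PBS the paclitaxel arm had 2 members higher (2.89% of all genes), Col18a1 by 0.68 (SE 0.19, adjusted p = 0.023) and Col7a1 by 0.61 (SE 0.17, adjusted p = 0.020). Col18a1 and Col5a1 lay above every female PBS library (1.08% of all genes were higher so). The cisplatin arm had 1 lower (0.13% of all genes), Col15a1, which ranged from 4.12 to 4.85 (median 4.37) against 4.96 to 5.76 in PBS. The groups did not overlap (0.859% of all genes were lower so), and the change was -0.90 (SE 0.20, adjusted p = 0.019). These comparisons with PBS were not refitted under the alternative settings or with libraries left out. The GC slope exceeded 0.1 in 2 of 7 female paclitaxel, 2 of 7 female PBS and 0 of 6 female cisplatin libraries, and its part in these calls was not tested. No member passed the test of a difference between the sexes in the effect of any drug by limma, as for all genes (0.0%). For 5-fluorouracil, paclitaxel and cisplatin 2, 1 and 1 members had an unadjusted p under 0.05, again without a share of all genes at that level.

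Set directly against each other within a sex, the drugs differed in 0 of the 38 collagen genes by limma in any of 6 comparisons. In females paclitaxel against 5-fluorouracil called 0.188% of all genes, cisplatin against paclitaxel 0.0217% and cisplatin against 5-fluorouracil 0.0%, and 12, 14 and 1 members had an unadjusted p under 0.05. In males the shares were 0.0144%, 0.0144% and 0.0% and the members 4, 8 and 0. These shares are at an adjusted p under 0.05 and give no baseline for the member counts, which are at an unadjusted p. Between female cisplatin and paclitaxel libraries 5 members were lower and 1 higher without overlap, beside 0.404% and 0.332% of all genes. Col3a1 ranged from 5.94 to 6.72 with cisplatin and from 6.96 to 8.38 with paclitaxel, and Col5a1 from 4.67 to 5.22 against 5.53 to 6.05. Col18a1 ranged from 3.20 to 3.84 against 3.92 to 4.50, Col4a1 from 6.67 to 7.03 against 7.10 to 7.81 and Col6a3 from 5.01 to 5.69 against 5.75 to 6.26. Col4a3 was the reverse, at 0.38 to 1.41 against -1.99 to 0.37. Of these libraries 0 of 6 with cisplatin and 2 of 7 with paclitaxel had a GC slope above 0.1, whose part in the separation was not tested.

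Type I collagen mRNA is abundant in tendon, which meets the gastrocnemius at both ends, and tendon markers varied widely between libraries. The summed level of 9 tenocyte and myotendinous junction genes (among them Fmod, Comp and Tnmd) ran from 48.7 to 2063 CPM. The highest library, male 5-fluorouracil replicate 5, had 9.92 for Col1a1 and 10.15 for Col1a2, while the next in its group had 7.12 and 7.41. Female 5-fluorouracil replicate 2, with the next highest sum of 1323, had 9.21 for Col1a2 where the next had 7.35. In these libraries Fmod, a fibril-binding proteoglycan, stood at 10.40 and 9.71 against group medians of 6.57 and 6.96. Tnmd, a tendon membrane protein, stood at 4.37 and 4.36 against 0.43 and 1.83. Mkx, Thbs4, Comp, Kera and Chodl were above their group medians in both libraries too. Scx, the tenocyte transcription factor, was below it in both (2.39 against 2.60 and 2.24 against 2.33), and Egr1 was below it in the male library (-0.60 against 0.42) and above it in the female one (0.39 against -0.07).

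Of the 25 members with a mean log2 level of at least 1, Col12a1 (a collagen on the fibre surface), Col1a1 and Col1a2 varied most within groups. Their SD was 1.09, 0.90 and 0.87, but 0.32 for Col4a1 and 0.36 for Col15a1. The 25 had a median SD of 0.48, beside 0.32 over all such genes. In the male tumour comparison the marker sum ranged from 81.7 to 632 (median 189) in PBS and from 48.7 to 638 (median 119) in C26 saline libraries. Of the 9 markers 2 fell (Kera at -2.94, SE 0.86, adjusted p = 0.0067, and Tnmd at -2.44, SE 0.73, adjusted p = 0.0081) and 0 rose, beside 13.0% and 13.1% of all genes. Male PBS replicates 6, 7 and 8, each needed for the Col1a1 call, had Tnmd at 3.58, 3.77 and 3.55. Their Fmod stood at 8.01, 8.59 and 8.24. The other male PBS libraries reached at most 1.77 for Tnmd and 6.57 for Fmod. Scx was not raised in these replicates, at 1.34, 2.06 and 1.98 against up to 2.75 in the others.

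With the log2 marker sum as a covariate the male tumour change of Col1a1 was -0.91 (SE 0.25, adjusted p = 0.0040), and those of Col1a2 and Col12a1 passed the test, at -0.71 (SE 0.20, adjusted p = 0.0049) and -0.66 (SE 0.22, adjusted p = 0.018). Col3a1 then passed the test for male 5-fluorouracil at -0.84 (SE 0.22, adjusted p = 0.0031), and without the 2 libraries of highest marker level it was at -0.76 (SE 0.27, adjusted p = 0.040). The male 5-fluorouracil count was 7 with the covariate and 4 without the 2 libraries. In females with the covariate the tumour count was 6, and Col5a1 passed for paclitaxel at 0.88 (SE 0.17, adjusted p = 0.047). Both tendon settings were chosen after seeing the data, so calls gained under them are no independent test. The marker sum also holds Kera and Tnmd, which fell with the tumour in males.

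**Figure D5:**
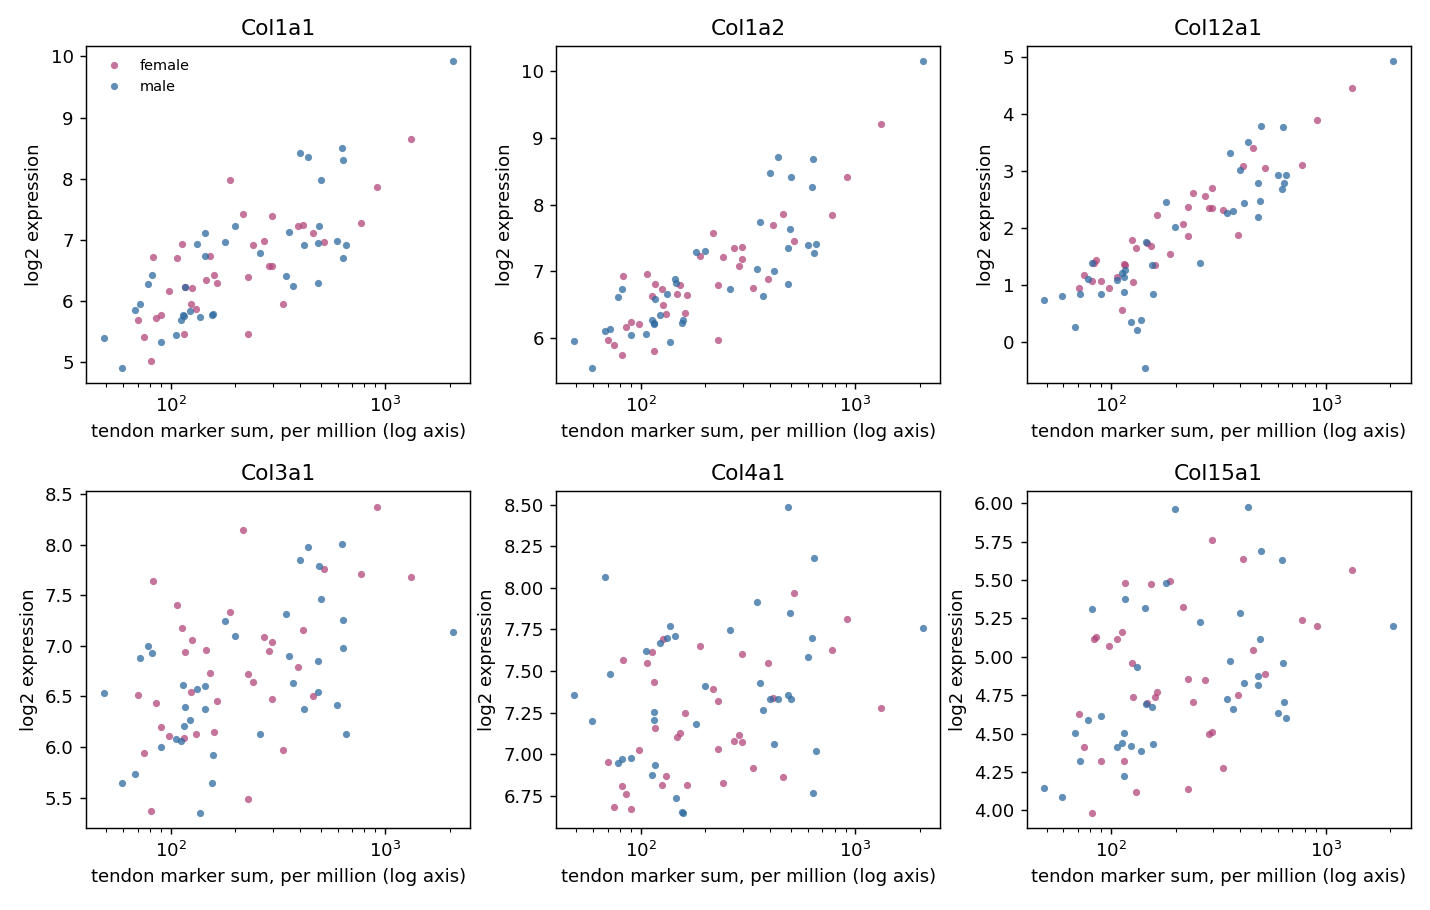
Log2 expression of 6 collagen genes against the summed level of 9 tendon markers (CPM, log axis), with 1 point per library and colours for sex. Libraries with more tendon marker RNA sit higher for Col1a1, Col1a2 and Col12a1, with the highest at a sum of 2063, and less visibly so for Col4a1 and Col15a1.

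Genes that make, modify and break down collagen were read beside the chains. The lists were drawn up with earlier results of these data known. In the male tumour comparison 7 of 12 collagen-degrading enzymes rose and 1 fell, with a median of 0.64, where 13.1% of all genes were higher and 13.0% lower. Mmp8, the neutrophil collagenase, rose by 4.36 (SE 0.66, adjusted p = 5.4e-07), Mmp3, a stromelysin, by 3.34 (SE 0.53, adjusted p = 1.0e-06) and Ctsl, a lysosomal protease, by 1.58 (SE 0.23, adjusted p = 1.7e-07). The membrane-bound Mmp15 fell by 0.93 (SE 0.16, adjusted p = 3.6e-06). In females 3 of 12 rose and 0 fell (4.14% and 2.56% of all genes), among them Mmp3 by 3.17 (SE 0.56, adjusted p = 6.8e-05) and Mmp8 by 3.45 (SE 0.71, adjusted p = 0.00069).

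Neutrophil and macrophage markers moved with these enzymes, and their part in the enzyme result was not tested. All 7 neutrophil markers and 8 of 10 macrophage markers rose in the male tumour comparison, as did 6 and 6 in the female one. Of all genes 13.1% and 4.14% were called higher there. The neutrophil list itself holds Mmp8 and Mmp9. The summed neutrophil level ranged from 1.89 to 11.7 CPM in male PBS and from 10.2 to 33.2 in male C26 saline libraries. Of 14 fibroblast markers 3 rose and 1 fell in the male tumour comparison, beside 13.1% and 13.0% of all genes. Their summed level was 935 to 1547 (median 1361) in PBS and 1068 to 1896 (median 1270) in C26 saline libraries.

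A pair of crosslinking enzymes rose in both sexes. Lox, which oxidises lysines so that collagen molecules bond, rose by 2.14 (SE 0.42, adjusted p = 5.9e-05) in males and 1.90 (SE 0.45, adjusted p = 0.0034) in females, and the transglutaminase Tgm2 by 1.28 (SE 0.17, adjusted p = 4.9e-08) and 1.13 (SE 0.19, adjusted p = 2.2e-05). They were 2 higher and 1 lower of 6 in males and 2 higher and 0 lower of 6 in females, to be read against the same all-gene shares. Cisplatin lowered both in males, with changes of -1.54 for Lox (SE 0.42, adjusted p = 0.0067) and -0.75 for Tgm2 (SE 0.17, adjusted p = 0.0013). So did 5-fluorouracil, at -1.40 (SE 0.42, adjusted p = 0.012) and -0.47 (SE 0.17, adjusted p = 0.043), while paclitaxel called 0 of 6.

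Enzymes that modify the nascent chain changed singly. P4hb, a subunit of prolyl hydroxylase, rose by 0.56 (SE 0.08, adjusted p = 2.4e-07) in males and 0.40 (SE 0.09, adjusted p = 0.0016) in females. Colgalt2, a collagen galactosyltransferase, changed by -0.80 (SE 0.19, adjusted p = 0.0011) and -0.85 (SE 0.21, adjusted p = 0.0048). Of 15 such genes 2 rose and 1 fell in males, and 1 rose and 1 fell in females, near or below the shares over all genes (13.1% and 13.0% in males, 4.14% and 2.56% in females). Among 11 folding and secretion genes 1 rose in each sex, Tmem38b, an ion channel of the endoplasmic reticulum, by 1.19 (SE 0.20, adjusted p = 2.9e-06) and 0.64 (SE 0.21, adjusted p = 0.049). It was called lower with every drug in males, at -1.37 with 5-fluorouracil and -1.31 with cisplatin, and by less with paclitaxel. Of 7 procollagen-processing genes 2 fell in males, Adamts14 at -0.88 (SE 0.24, adjusted p = 0.0040) and Adamts3 at -1.79 (SE 0.58, adjusted p = 0.016).

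Most interstitial partners did not pass the test. Among 21, 5 rose and 0 fell in males (beside 13.1% and 13.0% of all genes) and 4 rose and 0 fell in females (4.14% and 2.56%), led by Eln, which encodes elastin, at 1.13 (SE 0.18, adjusted p = 1.6e-06) and 1.02 (SE 0.19, adjusted p = 0.00019). Among 14 basement membrane partners 2 rose and 2 fell in males, shares close to those over all genes. Lama5, a laminin chain, rose by 0.54 (SE 0.18, adjusted p = 0.021), and Nid2, which bridges laminin and type IV collagen, fell by 0.52 (SE 0.16, adjusted p = 0.012). Of 10 collagen receptors 2 rose and 1 fell in males, beside the same all-gene shares, the last being Ddr1, a receptor kinase, at -0.51 (SE 0.18, adjusted p = 0.027). Of 16 TGF-beta ligands, receptors and targets 3 rose and 3 fell in males, beside those shares, with Tgfbr2 at 0.70 (SE 0.14, adjusted p = 7.2e-05) and Tgfb2 at -0.52 (SE 0.18, adjusted p = 0.020).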

How the data were processed

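Expression was deposited as log2 values for 13856 genes in each library. The authors' log2 values come from paired-end reads processed with fastp, Salmon, edgeR and limma against mm39 (GRCm39), per the submitters' processing notes, which give no versions or settings. The values have the form of log2 CPM with 0.5 added to each count, and 98.8% of the members' values then come back as whole counts within 0.02, so depth was estimated from each library's lowest value. No count test was run because the table holds log2 values. Of 74 columns, 1 was left out because its labels disagree.

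A single limma model (limma 3.58.1, R 4.3.3) with empirical Bayes moderation and a mean-variance trend was fitted to 73 libraries in 10 groups, with 63 residual degrees of freedom. P-values were adjusted by Benjamini-Hochberg over all 13856 genes in each of 25 comparisons and called under 0.05. Every fold change is a difference of mean log2 values, and the authors' offset understates changes of genes near 0. Figures and counts were made with Python 3.11.15. The script was tested on simulated data with known changes.

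The members follow from their names, but members and lists were chosen with earlier results of these data known. All members may be named. Statistics are given for members called within a sex against C26 saline or PBS. They are also given for chains of types I, III, IV, V, VI, XV and XVIII, though not for every such chain in every comparison. Up to 4 genes are named per pathway list and comparison. Transcript length and GC content came from GENCODE vM21 (GRCm38), matched by gene ID for 99.5% of genes, and no other gene coordinate is printed because the builds differ. Markers of 11 cell types and 10 pathway lists were read in the same fit.

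Replicate numbers recur across groups. Deviations of same-numbered libraries correlated above 0.1 in every pair for 1 of the 8 main comparisons, female paclitaxel against C26 saline (7 of 7 pairs, 0.16 to 0.80), where the block left the count at 0. No label ties a number to a litter or day. The closest pair of libraries of 1 group differed by more than counting noise (mean chi-square 15.3 per gene). Alternatives were quantile normalization, a mean log2 minimum of 1, the compared groups only, quality weights, the replicate block, the GC slope as a covariate, and libraries left out by GC slope or 1 at a time. A pair of settings on tendon markers were chosen after seeing the data. All of these were run on the 8 main comparisons and the 4 sex differences in effect only. Drug against PBS, drug against drug and male against female PBS were fitted in the main model alone.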

Additional observations from a re-analysis of the deposited data

Results flagged for a closer look

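Each group of 6 to 8 libraries was searched for a single collagen value that stood apart from the rest by a large share of the group's range. Of 380 tests 28 met the limit, where a nominal rate of 1 in 20 would give 19. The genes of 1 library are not independent and several chains had few or no counts, so 19 is only a rough guide. The values are given on the log2 scale with the nearest other value of the group.

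The 2 libraries of highest tendon marker level gave 6 of these. In male 5-fluorouracil replicate 5 Col1a1 stood at 9.92 (next 7.12), Col5a2 stood at 4.99 (next 4.24) and Col1a2 stood at 10.15 (next 7.41). In female 5-fluorouracil replicate 2 Col1a2 stood at 9.21 (next 7.35), Col16a1 stood at 3.97 (next 3.06) and Col6a3 stood at 6.45 (next 5.53). The part of tendon in these values was not tested, nor was that of the GC slope, which was 0.17 in the male library and -0.10 in the female one.

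High values in other libraries were found for 7 genes. Col5a3 reached 5.46 in male C26 saline replicate 5, where the next was 4.69. Col17a1 reached 3.54 in female 5-fluorouracil replicate 1, where the next was -0.94. Col17a1 reached 3.99 in male cisplatin replicate 6, where the next was -1.09. Col4a5 reached 1.11 in female cisplatin replicate 1, where the next was 0.33. Col4a2 reached 7.94 in male cisplatin replicate 4, where the next was 7.26. Col8a2 reached 2.35 in female paclitaxel replicate 2, where the next was 0.15. Col8a1 reached 2.87 in female cisplatin replicate 1, where the next was 2.01. Col22a1 reached 4.93 in female paclitaxel replicate 6, where the next was 3.87. Male cisplatin replicate 4 and female paclitaxel replicate 6 had GC slopes of 0.55 and 0.48, whose part was not tested, and the other libraries of this paragraph had slopes below 0.1.

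Low values made up the rest, most of them in weakly expressed chains. Col26a1 was at -3.21 in female PBS replicate 2, with the next at -2.11. Col26a1 was at -6.26 in female C26 saline replicate 6, with the next at -2.79. Col14a1 was at 1.21 in male cisplatin replicate 4, with the next at 2.59. Col2a1 was at -5.82 in male C26 saline replicate 6, with the next at -3.10. Col2a1 was at -4.82 in male cisplatin replicate 3, with the next at -2.56. Col17a1 was at -4.90 in female PBS replicate 7, with the next at -2.07. Col9a3 was at -4.14 in male C26 saline replicate 2, with the next at -2.36. Col9a3 was at -4.76 in male cisplatin replicate 1, with the next at -2.56. Col24a1 was at 3.13 in female PBS replicate 1, with the next at 5.23. Col9a2 was at -3.36 in female 5-fluorouracil replicate 1, with the next at -2.31. Col13a1 was at 0.03 in male paclitaxel replicate 2, with the next at 0.69. Col4a4 was at -1.21 in female cisplatin replicate 3, with the next at -0.41. Col28a1 was at -1.96 in male C26 saline replicate 1, with the next at -0.24. Col4a3 was at -1.99 in female paclitaxel replicate 6, with the next at -0.18. The low Col24a1 value lies in the female PBS group that the tumour comparison uses, and without that library Col24a1 kept its call, at -1.83 (limma adjusted p = 0.0025).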

How the results depend on the processing

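The 38 collagen genes were recounted under each alternative, and no named gene called in either fit changed sign, although values that missed the test did. Quantile normalization, a mean log2 minimum of 1 and leaving out the 2 libraries of highest tendon marker level kept each count within 1.5 times. Quality weights moved it to 6 for the female tumour comparison (from 3), to 4, 3 and 6 for female 5-fluorouracil, paclitaxel and cisplatin (from 1, 0 and 1), to 23 for the male tumour comparison (from 15) and to 5 for male paclitaxel (from 8), and to 2, 1 and 1 for the sex differences in tumour, paclitaxel and cisplatin effects (from 0). Fits of the compared groups only gave 0 and 2 for female 5-fluorouracil and cisplatin, and 3 and 2 for male 5-fluorouracil (from 6) and paclitaxel. Adding the GC slope to the model gave counts of 2 for female cisplatin, 2 for male paclitaxel and 1 for the sex difference in the tumour effect. Without the libraries of slope above 0.1 they were 3 and 3 for female cisplatin and male paclitaxel, the latter with only paclitaxel replicates 4 and 6 left. The tendon covariate, added after seeing the data, gave 6, 2 and 1 for the female tumour, 5-fluorouracil and paclitaxel comparisons. The cause of these moves was not tested.

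With the replicate number as a block the counts were 4, 1, 0 and 0 in females and 15, 7, 10 and 5 in males for tumour, 5-fluorouracil, paclitaxel and cisplatin. The numbers do not pair these libraries by any label.

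Leaving out 1 library at a time gave 0 to 4, 0 to 1, 0 to 0 and 0 to 1 female calls and 13 to 17, 2 to 10, 2 to 11 and 3 to 5 male calls in that order, and 0 to 1 for the sex difference in the tumour effect (1 without male C26 saline replicate 4). Chains such as Col2a1, Col9a2, Col9a3, Col11a1, Col17a1 and Col26a1 had no count in 1 to 3 libraries, so depth limits what can be read from them.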
